A study of Mus musculus with 18 samples.

Results

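The genes that let cells sense bacterial endotoxin and pass the signal to the transcription factor NF-kB were followed by RNA sequencing of mouse testis. They are Tlr2, Tlr4, Cd14, Ly96, Myd88, Irak4, Traf6, Nfkb1, Rela and Nfkbia. They were chosen by name as the core of the pathway, and all 10 were found among the 20979 gene symbols of the deposited table. The 18 libraries came from ICR mice of 10 weeks, in 6 groups of 3. The groups were a control, AOS at 10 mg/kg, a high-fat diet (HFD) and the same diet combined with AOS (HFD-AOS, also 10 mg/kg). In 2 more groups the diet was combined with FMT, labelled as AOS at 10 mg/kg in HFD-AOSFMT and as control in HFD-conFMT. FMT is the usual abbreviation of faecal microbiota transplantation, and AOS is not spelled out in the sources used here. Whether the 3 samples of a group are separate animals is not stated. The p-values therefore reflect sample-to-sample spread alone, and some of it may be technical.

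Endotoxin is the lipopolysaccharide of the outer membrane of Gram-negative bacteria. It is handed by the carrier CD14 to a receptor made of TLR4 and its partner MD-2, the product of Ly96, while TLR2 senses bacterial lipoproteins. Both receptors recruit the adaptor MYD88, which assembles the kinase IRAK4, and the ubiquitin ligase TRAF6 then passes the signal to the kinases that mark IkB proteins for destruction. NF-kB, most often a pair of RELA and the p50 product of Nfkb1, is then free to enter the nucleus. There it switches on inflammatory genes and also Nfkbia, which encodes its own inhibitor IkB-alpha. In the testis, macrophages lie between the seminiferous tubules next to the Leydig cells. The activity of the pathway is set largely by protein modification and location, which transcript levels do not measure.

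The values were read as FPKM, fragments scaled by transcript length and by the mapped total, so that levels can be compared between genes per length. They summed to between 588080.8 and 637004.9 FPKM per library, and 12996 to 13221 genes reached 1 FPKM. The absolute depth is unknown. The tissue label was matched by its markers: Prm1, which packs sperm DNA, averaged 14836 FPKM over the 18 libraries, the Leydig cell hormone gene Insl3 averaged 3022 FPKM and Clu, abundant in Sertoli cells, averaged 485 FPKM. The epididymal gene Crisp1 stood at 159 FPKM in control replicate 3 and at 104 FPKM in HFD-conFMT replicate 2, against at most 8.60 FPKM in the other 16 libraries. The same 2 libraries held Cd52, a gene of leukocytes and epididymis, at 133 and 81.4 FPKM. Results were therefore also computed without them.

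The members fell into a graded series of levels, from receptors near the limit of detection to a transcription factor subunit well above the median gene. Over the 18 libraries, Rela averaged 17.3 FPKM, above 77.0% of the genes that were above 0 in some library. Myd88 followed at 6.90 FPKM and Nfkbia at 5.72 FPKM. Nfkb1 averaged 2.81 FPKM, Irak4 2.26 FPKM and Ly96 1.62 FPKM. Traf6 averaged 0.999 FPKM and Cd14 0.639 FPKM, while the receptors themselves were lowest, with Tlr2 at 0.184 FPKM and Tlr4 at 0.104 FPKM. Relative scatter among libraries was largest for the receptors, with a coefficient of variation of 49.8% for Tlr2 and 33.7% for Tlr4, and smallest for Rela at 6.09% and Myd88 at 6.78%. In whole tissue, fewer cells of a type and less RNA per cell cannot be told apart.

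**Figure D1:**
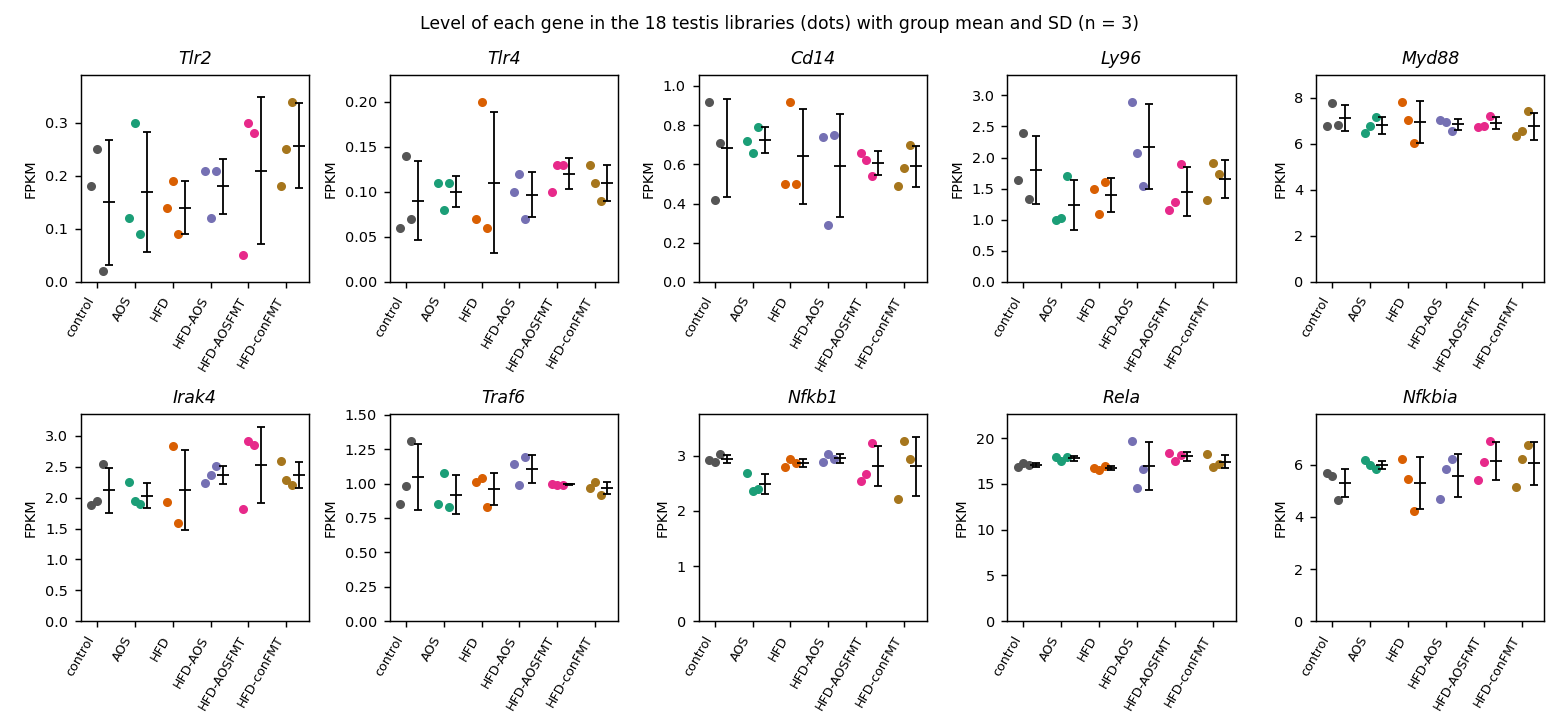
FPKM of each of the 10 genes in the 18 libraries (dots) with the mean and SD of each group (n = 3), one panel per gene, by group on the horizontal axis. Groups next to each other in level overlap in each panel, and the panels run from Tlr4 near 0.104 FPKM to Rela near 17.3 FPKM.

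Ordered by level, the 6 group means of each gene gave 50 pairs of neighbours over the 10 genes, and the 3 and 3 values overlapped in all 50 (0 without overlap). Neighbours are the groups with the closest means, so the ordering favours overlap, which does not show that the groups are alike. Groups that are not neighbours could be separate, as in some comparisons given further on. The highest and lowest groups themselves had separate values only for Nfkb1, with HFD-AOS highest and AOS lowest, and for Rela, with HFD-AOSFMT highest and HFD lowest. These pairs were picked by their means, and the share of all genes was computed for neither kind of pair. The ratio of highest to lowest group mean was 1.83 for Tlr2, 1.75 for Ly96 and 1.33 for Tlr4. It was 1.25 for Irak4, 1.23 for Cd14, 1.20 for Traf6, 1.19 for Nfkb1 and 1.16 for Nfkbia. Rela, at 1.08, and Myd88, at 1.05, had the narrowest ranges of group means.

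Tlr4, the signalling receptor for endotoxin (mm10 chr4:66827584-66930284, plus strand), was detected in all 18 libraries but never above 0.20 FPKM. Its group means were 0.090 FPKM in control, 0.10 in AOS, 0.11 in HFD, 0.0967 in HFD-AOS, 0.12 in HFD-AOSFMT and 0.11 in HFD-conFMT. A single read is worth roughly 0.0228 FPKM for a transcript of its length, by an estimate from 1362 genes with low values, so these levels rest on few reads. Per length, the mean level of Ly96 was 15.5 times that of Tlr4, and the ratio in single libraries ran from 5.45 to 29.0. The partner was thus above the receptor in every library.

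Tlr2 (mm10 chr3:83836272-83841767, minus strand), the lipoprotein receptor, ranged from 0.02 FPKM in control replicate 3 to 0.34 FPKM in HFD-conFMT replicate 3. Its group means were 0.15 ± 0.118 FPKM in control, 0.17 ± 0.114 in AOS, 0.14 ± 0.050 in HFD, 0.18 ± 0.052 in HFD-AOS, 0.21 ± 0.139 in HFD-AOSFMT and 0.257 ± 0.0802 in HFD-conFMT (SD, n = 3 each). The largest SD exceeded the gap between the highest and the lowest group mean. Of the 10 other Toll-like receptor genes, 0 averaged 1 FPKM. The highest of them was Tlr3, a sensor of double-stranded RNA, at 0.418 FPKM, and the lowest stood at 0.0244 FPKM. All Toll-like receptor genes measured here were thus under 1 FPKM on average.

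The promoters of Tlr2 and of Nfkbia, the inhibitor gene, are shown because they alone, among 6 members with a window in the RefSeq table (GRCm38.p6), held a match to the NF-kB consensus. The other 4 with a window were Myd88, Irak4, Traf6 and Rela. Tlr4, Ly96, Nfkb1 and the carrier gene had none. The consensus searched was 10 bases long: G at 3 places, a purine, any base at 2 places, a pyrimidine at 2 places and C at 2 places, on both strands. The search covered the 250 bases before the RefSeq start. The stretch before both the RefSeq and the GENCODE start is given 5′ to 3′ on the gene's strand, with the match in capitals.
Tlr2 promoter, chr3:83841768-83841858, minus strand: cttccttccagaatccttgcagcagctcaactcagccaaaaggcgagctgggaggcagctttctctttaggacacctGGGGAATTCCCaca
Nfkbia promoter, chr12:55492648-55492897, minus strand: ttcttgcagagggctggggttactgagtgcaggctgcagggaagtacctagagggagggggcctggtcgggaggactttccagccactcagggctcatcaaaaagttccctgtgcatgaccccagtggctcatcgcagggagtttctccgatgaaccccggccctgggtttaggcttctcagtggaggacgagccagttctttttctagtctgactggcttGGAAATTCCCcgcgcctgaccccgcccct
In Tlr2 the capitals cover 2 overlapping matches that begin 173 and 172 bases before the RefSeq start. The GENCODE start lies upstream of it, so that 159 bases of the searched window are inside the GENCODE gene, and the matches begin 14 and 13 bases before that start. In Nfkbia, where both annotations give the same start, a single match begins 29 bases before it. Of all 32851 promoter windows in the table, which covered 27025 genes, 7.25% held a match. Among the related pathway genes described further on, 20 of 79 with a window held one. The first share counts windows and the second counts genes, which can have several windows. The pathway genes also include a list of 25 NF-kB targets, so the 2 shares cannot be compared directly. A match describes letters and does not show binding.

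Cd14 encodes the carrier that delivers endotoxin to the receptor. It stood between 0.29 and 0.92 FPKM over the 18 libraries. Its group means ran from 0.590 ± 0.105 FPKM in HFD-conFMT to 0.723 ± 0.0651 FPKM in AOS (SD, n = 3 each). Each group's values overlapped with those of every neighbour in level, and the highest group's values with those of the lowest.

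Ly96 encodes MD-2, the part of the receptor complex that binds endotoxin (mm10 chr1:16688051-16709611, plus strand), and it showed the widest relative spread of group means among the members that passed the filter for testing. The control libraries had 1.64, 2.40 and 1.34 FPKM, and the AOS libraries 1.00, 1.02 and 1.70 FPKM. The HFD libraries had 1.49, 1.09 and 1.61 FPKM, and the HFD-AOS libraries 2.90, 2.08 and 1.54 FPKM. Both pairs overlapped, since AOS replicate 3 lay among the controls and HFD-AOS replicate 3 lay among the HFD values. The HFD-AOSFMT libraries had 1.16, 1.29 and 1.90 FPKM and the HFD-conFMT libraries 1.31, 1.91 and 1.74 FPKM, within the range of the other groups. For this short transcript 1 read is worth roughly 0.139 FPKM, so the values of Ly96 rest on few reads too.

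Downstream of the receptors, Myd88, the adaptor shared by most Toll-like receptors (mm10 chr9:119335934-119341411, minus strand), held nearly the same level throughout. Its 18 values lay between 6.02 and 7.84 FPKM, and both extremes were HFD libraries. Group means were 7.13 ± 0.567 FPKM in control, 6.81 ± 0.355 in AOS, 6.96 ± 0.912 in HFD, 6.85 ± 0.250 in HFD-AOS, 6.91 ± 0.252 in HFD-AOSFMT and 6.77 ± 0.580 in HFD-conFMT (SD, n = 3 each). Per length, the mean level of Myd88 over the 18 libraries was 66.1 times that of Tlr4, 3.06 times that of Irak4 and 6.91 times that of Traf6. Exons of Myd88 share 290 bases with Acaa1a on the opposite strand. The strand setting of the counting is not given, so reads of that stretch cannot be assigned to one gene.

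Irak4 encodes the first kinase recruited by MYD88 (mm10 chr15:94543643-94581815, plus strand). Its values ranged from 1.59 FPKM in HFD replicate 3 to 2.92 FPKM in HFD-AOSFMT replicate 2. Its group means lay between 2.03 ± 0.199 FPKM in AOS and 2.53 ± 0.619 FPKM in HFD-AOSFMT (SD, n = 3 each). The HFD group alone spanned 1.59 to 2.84 FPKM, most of the range of all 18 libraries. Irak4 shares 395 exon bases with Twf1 on the opposite strand, with the same limit.

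Traf6, the ubiquitin ligase that links the receptor complex to the IkB kinases (mm10 chr2:101678429-101701669, plus strand), had values between 0.83 and 1.31 FPKM. The highest value was that of control replicate 3, one of the libraries with epididymal transcripts. Group means ran from 0.920 ± 0.139 FPKM in AOS to 1.11 ± 0.104 FPKM in HFD-AOS (SD, n = 3 each). Its mean over all libraries, 0.999 FPKM, fell just under the filter of 1 FPKM.

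Rela encodes the transactivating subunit of NF-kB (mm10 chr19:5637483-5648130, plus strand) and was the most abundant member. Control libraries had 16.89, 17.25 and 17.01 FPKM, and AOS libraries 17.95, 17.50 and 17.94 FPKM. The HFD libraries had 16.72, 16.49 and 16.98 FPKM, and the HFD-AOS libraries 19.69, 14.56 and 16.58 FPKM. HFD-AOS thus held both the highest and the lowest of the 18 values. The HFD-AOSFMT libraries had 18.41, 17.46 and 18.10 FPKM and the HFD-conFMT libraries 18.23, 16.83 and 17.20 FPKM. All AOS values lay above all control values, and all HFD-AOSFMT values above all HFD values.

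Nfkb1 encodes p105, the precursor of the p50 subunit (mm10 chr3:135584655-135691547, minus strand). Control libraries had 2.92, 2.88 and 3.03 FPKM, and AOS libraries 2.69, 2.36 and 2.40 FPKM, with every AOS value under every control value. The HFD libraries had 2.79, 2.94 and 2.87 FPKM, and the HFD-AOS libraries 2.88, 3.04 and 2.95 FPKM. These 2 groups overlapped and lay at the level of the controls. The HFD-AOSFMT libraries had 2.55, 2.67 and 3.23 FPKM and the HFD-conFMT libraries 2.22, 3.27 and 2.94 FPKM, each spreading over most of the range of the gene. Per length, the mean level of Rela was 6.16 times that of Nfkb1, and the ratio in single libraries ran from 4.79 to 8.21.

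Nfkbia encodes IkB-alpha, at once the inhibitor of NF-kB and one of its best known targets (mm10 chr12:55489410-55492647, minus strand). Control libraries had 5.67, 5.56 and 4.66 FPKM, and AOS libraries 6.16, 5.98 and 5.82 FPKM, again without overlap. The HFD libraries had 6.21, 5.45 and 4.22 FPKM, and the HFD-AOS libraries 4.68, 5.84 and 6.23 FPKM. The HFD-AOSFMT libraries had 5.43, 6.09 and 6.91 FPKM and the HFD-conFMT libraries 5.13, 6.23 and 6.77 FPKM. In the 4 groups on the diet the values overlapped widely. Per length, the mean level of Rela was 3.03 times that of Nfkbia, with 2.49 to 4.21 in single libraries.

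The comparisons between groups were tested with limma on log2(FPKM + 1), a scale that understates the change of low genes, in one fit of all 18 libraries. Genes averaging 1 FPKM or more, 13105 of them, were tested. Of the 10 members, 6 passed that filter (Ly96, Myd88, Irak4, Nfkb1, Rela and Nfkbia). Tlr2, Tlr4, Cd14 and Traf6 were tested only in a fit with no filter. Of these 4, 0 had an unadjusted p under 0.05 in any comparison, and their lowest adjusted p was 0.654 (Tlr2, in HFD-conFMT against HFD). In the filtered fit 0 members had an adjusted p under 0.05 in any comparison, and the lowest adjusted p was 0.344. Few genes of the whole table passed either, as given with each comparison. Of the comparisons, 4 share the HFD libraries and 2 share the controls, so they are not independent of each other.

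In HFD against control, which compares the diet alone, all 6 tested members had estimates under 0 and 95% intervals that include 0. The means of Irak4 (2.12 and 2.12 FPKM) and Nfkbia (5.29 and 5.30 FPKM) were nearly equal. The estimates ran from a log2 difference of -0.21 for Ly96 (SE 0.18, 95% interval -0.59 to 0.17, limma adjusted p = 0.837) to -0.01 for Nfkbia (interval -0.27 to 0.25). Their median was -0.03, against -0.01 over all genes tested. By limma 0 members were called and 0 had an unadjusted p under 0.05. Over all genes 0% were called, 6.75% had an unadjusted p under 0.05 and 12.5% had 3 and 3 values without overlap. Of the 6 members, 0 were without overlap.

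In AOS against control, the values of 3 members did not overlap between the groups, with Nfkb1 lower and Rela and Nfkbia higher, and none passed the test. Nfkb1 averaged 2.48 ± 0.180 FPKM with AOS and 2.94 ± 0.0777 FPKM in control (SD, n = 3 each), a log2 difference of -0.18 (SE 0.09, 95% interval -0.37 to 0.01, limma adjusted p = 0.344). Rela averaged 17.8 ± 0.257 against 17.1 ± 0.183 FPKM, a difference of 0.06 (interval -0.09 to 0.21, adjusted p = 0.728). The spread behind this interval is shared by all 6 groups, among them HFD-AOS with an SD of 2.58 FPKM for Rela. It therefore does not measure the spread of these 2 groups alone. Nfkbia averaged 5.99 ± 0.170 against 5.30 ± 0.554 FPKM, a difference of 0.15 (interval -0.11 to 0.42, adjusted p = 0.566). These 3 of 6 tested members had no overlap between the groups, where 23.2% of all genes had none. Germ cell markers did not overlap in this comparison either: summed spermatid markers stood at 53457 to 55232 FPKM with AOS and 42443 to 48442 FPKM in control, and spermatocyte markers at 563 to 608 against 611 to 643 FPKM. The sums of Leydig and blood cell markers were lower with AOS without overlap (2592 to 3534 against 3542 to 4057 FPKM, and 66.44 to 98.76 against 99.79 to 140.64 FPKM). Their part in the members' values was not tested. Ly96 differed by -0.32 (interval -0.69 to 0.06, adjusted p = 0.404) with overlap, from -0.46 without AOS replicate 3 to -0.16 without control replicate 2. Of the 6, 2 were higher and 4 lower, 0 had an unadjusted p under 0.05 and 0 were called, against 15.8% and 0.0229% of all genes. The 500 genes of transcript length nearest to that of Nfkb1 had a median difference of -0.05 in this comparison. Without control replicate 3 and HFD-conFMT replicate 2, the libraries with epididymal transcripts, the differences were -0.16 for Nfkb1, 0.06 for Rela, 0.08 for Nfkbia and -0.43 for Ly96, with an adjusted p of 0.384 for Ly96.

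With AOS on the diet, in HFD-AOS against HFD, Ly96 was the 1 member with an unadjusted p under 0.05, which it was in no other comparison of 2 groups. It averaged 2.17 ± 0.685 FPKM in HFD-AOS and 1.40 ± 0.272 FPKM in HFD (SD, n = 3 each), a log2 difference of 0.39 (SE 0.18, 95% interval 0.01 to 0.77, limma adjusted p = 0.383). The groups overlapped, with 2 of 3 HFD-AOS values above all HFD values. Leaving out HFD-AOS replicate 1 brought the difference to 0.23, and leaving out HFD-AOS replicate 3 to 0.54 (limma adjusted p = 0.248). Without each library in turn the unadjusted limma p ran from 0.0115 to 0.23, so it did not stay under 0.05. HFD-AOS replicate 1, which held the highest Ly96 value, had the lowest weight of the 18 libraries when libraries were weighted (0.329). The estimates of the other 5 members lay between -0.01 for Myd88 and 0.13 for Irak4. That of Irak4 ran from 0.0045 without HFD replicate 3 to 0.29 without HFD replicate 2. Its unadjusted limma p without each library in turn ran from 0.046 to 0.98. By limma 1 of 6 had an unadjusted p under 0.05 and 0 were called, against 12.7% and 0% of all genes, and 0 were without overlap, against 13.4%.

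The difference between the AOS effects on and off the diet was largest for Ly96, at 0.70 on the log2 scale (SE 0.25, 95% interval 0.17 to 1.24, limma adjusted p = 0.700). It joins a lower mean in AOS than in control with a higher mean in HFD-AOS than in HFD, and did not pass the adjustment over genes, though its unadjusted p was under 0.05. Of the 6 tested members it was the 1 at that level, and 0 were called. Over all genes, 6.86% had an unadjusted p under 0.05 in this test and 0% were called. Without each library in turn the value ran from 0.54 to 0.85, and without both libraries of high Crisp1 it was 0.82. Nfkb1 followed with 0.21 (interval -0.06 to 0.48) and Irak4 with 0.17 (interval -0.26 to 0.59). The other 3 members had estimates between -0.08 and 0.04.

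**Figure D2:**
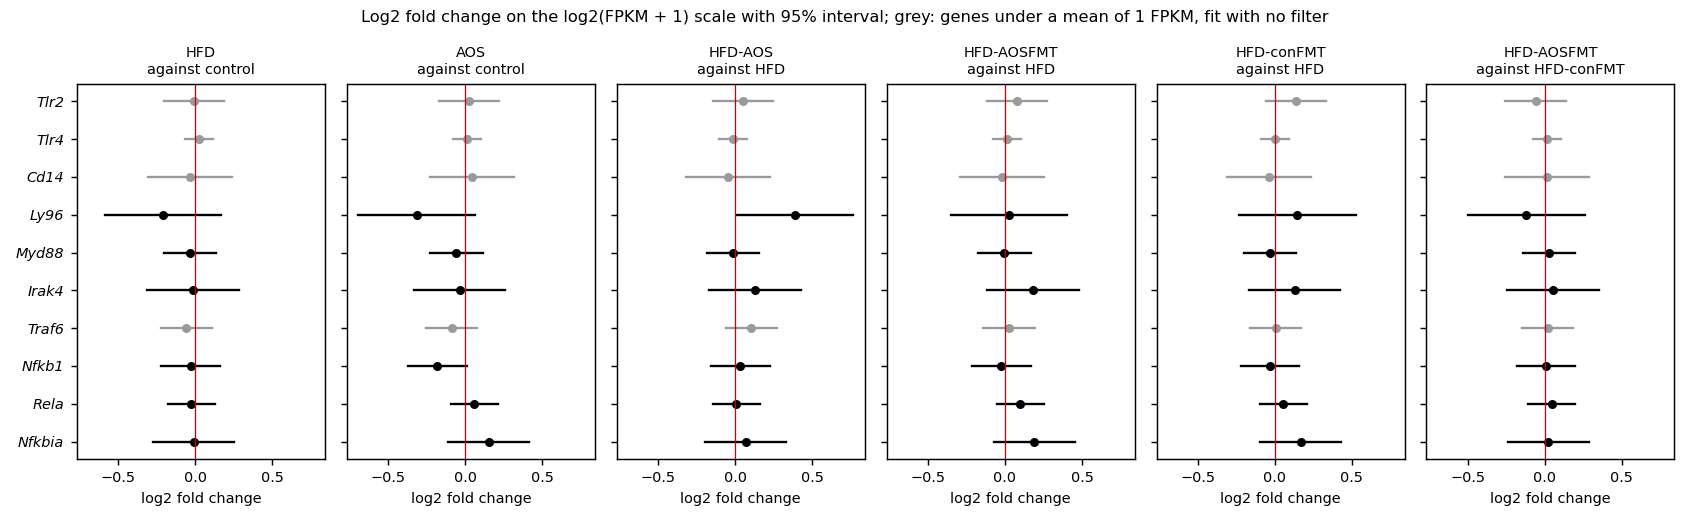
Log2 differences of log2(FPKM + 1) for the 10 genes in the 6 comparisons of groups (points) with 95% intervals (bars) from limma, the 4 genes under the filter taken from the fit with no filter. All intervals include 0 except that of Ly96 in HFD-AOS against HFD, 0.01 to 0.77.

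The FMT groups gave small differences as well. In HFD-AOSFMT against HFD, Rela averaged 17.99 ± 0.485 against 16.7 ± 0.245 FPKM (SD, n = 3 each), a log2 difference of 0.10 (95% interval -0.05 to 0.25, limma adjusted p = 0.677), with every HFD-AOSFMT value above every HFD value. It was the 1 of 6 members without overlap, against 17.2% of all genes. Its interval again rests on a spread that includes the wide HFD-AOS values. Without each library in turn the unadjusted limma p of Rela ran from 0.0503 to 0.33. Nfkbia differed by 0.19 (interval -0.07 to 0.45) and Irak4 by 0.18 (interval -0.11 to 0.48), both with overlap. Without each library in turn, Nfkbia ran from 0.06 (without HFD replicate 3) to 0.29 (without HFD replicate 1). Irak4 ran from 0.06 (without HFD replicate 3) to 0.34 (without HFD replicate 2). The lowest unadjusted limma p over these was 0.038 for Nfkbia and 0.021 for Irak4, and neither gene was called. By limma 0 of 6 had an unadjusted p under 0.05 and 0 were called, against 9.82% and 0.0229% of all genes.

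In HFD-conFMT against HFD, Nfkbia had the largest estimate, 0.17 on the log2 scale (95% interval -0.09 to 0.43, limma adjusted p = 0.602), followed by Ly96 with 0.15 (interval -0.23 to 0.53). Without each library in turn, Nfkbia ran from 0.04 (without HFD replicate 3) to 0.27 (without HFD replicate 1). Ly96 ran from 0.05 (without HFD replicate 2) to 0.24 (without HFD-conFMT replicate 1). By limma 0 of 6 had an unadjusted p under 0.05 and 0 were called, against 12.3% and 0% of all genes, and 0 were without overlap, against 20.2%. In HFD-AOSFMT against HFD-conFMT, which compares the labelled donors on the same diet, the estimates ran from -0.12 for Ly96 (interval -0.50 to 0.26) to 0.06 for Irak4 (interval -0.24 to 0.35). Again 0 of 6 had an unadjusted p under 0.05 and 0 were called, against 3.12% and 0.00763% of all genes, and 0 were without overlap, against 10.1%. Across all 6 groups, limma's F test called 0 members, with 0 at an unadjusted p under 0.05 and a lowest adjusted p of 0.408. It called 0.328% of all genes, and 18% had an unadjusted p under 0.05.

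Markers of the cells that carry endotoxin receptors were measured beside these results. Of 15 macrophage markers, 14 averaged at least 1 FPKM, among them Csf1r, the receptor for the macrophage growth factor, at 2.39 FPKM, Adgre1 (F4/80) at 1.18 FPKM and the lysosomal gene Cd68 at 3.53 FPKM. None was at 0 in any library. Aif1, at 355 FPKM, made up most of the summed level and was left out of the sum after its value was seen. The sum of the other 14 was 81.3 ± 3.08 FPKM in control, 74.98 ± 10.2 in AOS, 70.4 ± 2.57 in HFD, 77.7 ± 1.92 in HFD-AOS, 78.3 ± 6.89 in HFD-AOSFMT and 89.3 ± 7.31 in HFD-conFMT (SD, n = 3 each). Without Aif1, all HFD-AOS sums (75.55 to 79.11 FPKM) lay above all HFD sums (67.51 to 72.51 FPKM). With Aif1 they overlapped (416.58 to 436.59 against 403.21 to 434.37 FPKM). In that comparison 9 of the 14 tested markers were higher and 5 lower, with a median log2 difference of 0.07 and 0 called. Of these, 3 had an unadjusted limma p under 0.05, all higher, against 12.7% of all genes. The 14 tested markers keep Aif1 and leave out Cd163, at 0.21 FPKM, so they are not the 14 of the sum. In the difference of the AOS effects, largest for Ly96 among the members, 13 of the 14 were higher and 1 lower. Their median was 0.23, against 0.01 over all genes tested. Of the 14, 2 had an unadjusted limma p under 0.05, against 6.86% of all genes, and 0 were called. Over the 18 libraries, Ly96 and the marker sum had r = 0.27 after the group means were subtracted, and r = -0.20 with Aif1 kept in the sum, a description of libraries that share their tissue and processing. The part of macrophage content in the values of Ly96 was not tested. The 8 neutrophil markers were all under 1 FPKM, the highest value in any library being 0.47 FPKM.

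**Figure D3:**
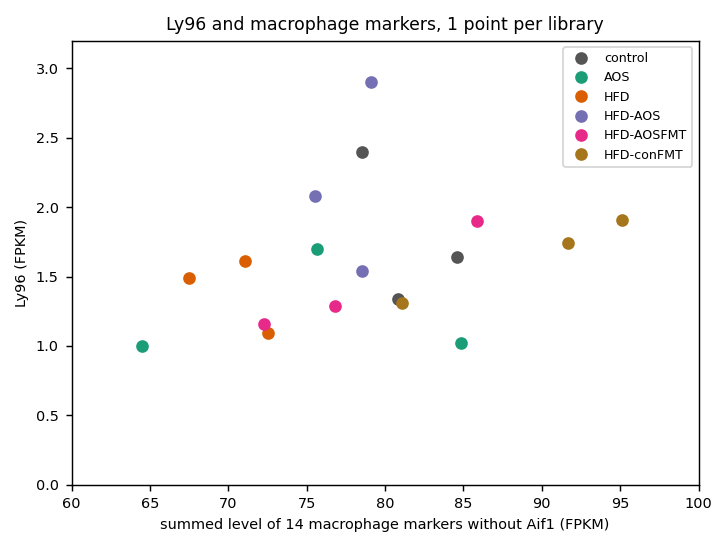
Ly96 (FPKM, vertical axis) against the summed level of 14 macrophage markers without Aif1 (FPKM, horizontal axis), one point per library, by group. The highest Ly96 value, 2.90 FPKM in HFD-AOS replicate 1, stands at a marker sum of 79.11 FPKM, in the middle of the 18 libraries.

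How the members moved together was described by correlation over the 18 libraries after the group means were subtracted. Among the 15 pairs of tested members, r ran from -0.48 for Rela and Nfkbia to 0.59 for Myd88 and Nfkbia. Nfkb1 and Nfkbia had r = 0.47, and Ly96 and Myd88 had r = 0.45. Both signs thus occurred among the pairs of these 6 genes. Genes with predicted or clone names (Gm with a number, or Rik) were left out of the search for like genes. Of the other genes tested, those most like Rela were Zc3h3 (r = 0.96), Wdr62 (0.95) and Klc2 (0.94), higher than for any other member. Rela spread far more in HFD-AOS (SD 2.58 FPKM) than in any other group (at most 0.73 FPKM). Its r values, that with Nfkbia included, thus lean on the HFD-AOS libraries more than on the other groups. Nfkbia was most like Hsd17b11 (0.87), Klhl2 (0.85) and Gclc (0.84), and Nfkb1 most like Tle1 (0.79), Spaca6 (0.77) and Rbm17 (0.77). Ly96 was most like Ddx51 (0.87), Zfp943 (0.86) and Polr1b (0.85), and Irak4 most like Chd9 (0.84), Trmt61a (0.84) and Abhd13 (0.84). Myd88 was most like Nelfb (0.82), Tmem160 (0.81) and Cdkn2b (0.79). These genes were picked as the highest of the 13105 tested after those names were left out, and the points share library and processing.

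The rest of the pathway was described from 98 further genes in 7 lists written from general knowledge. Of these, 48 averaged at least 1 FPKM and were tested. The receptors were low, whereas several chaperone, ubiquitin and inhibitory components were abundant. The most abundant gene of each list was Hsp90b1, the chaperone that folds Toll-like receptors (241.6 FPKM), Ube2n, the ubiquitin-conjugating enzyme that works with TRAF6 (331.7 FPKM), Sharpin, a subunit of the linear ubiquitin ligase (22.5 FPKM), Nfkbib, which encodes IkB-beta (114.6 FPKM), Tollip, an inhibitor of receptor signalling (72.8 FPKM), Lcn2, a siderophore-binding NF-kB target (384.2 FPKM), and the inflammasome protease gene Casp1 (1.86 FPKM). Of the classical inflammatory targets, Il10 and Cxcl2 were listed at 0 in every library, and Tnf averaged 0.0256 FPKM and Il6 0.0072 FPKM. Il1b averaged 0.754 FPKM. The adhesion gene Vcam1, at 22.7 FPKM, and the antioxidant enzyme gene Sod2, at 32.1 FPKM, which NF-kB also controls, were well above these.

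**Figure D4:**
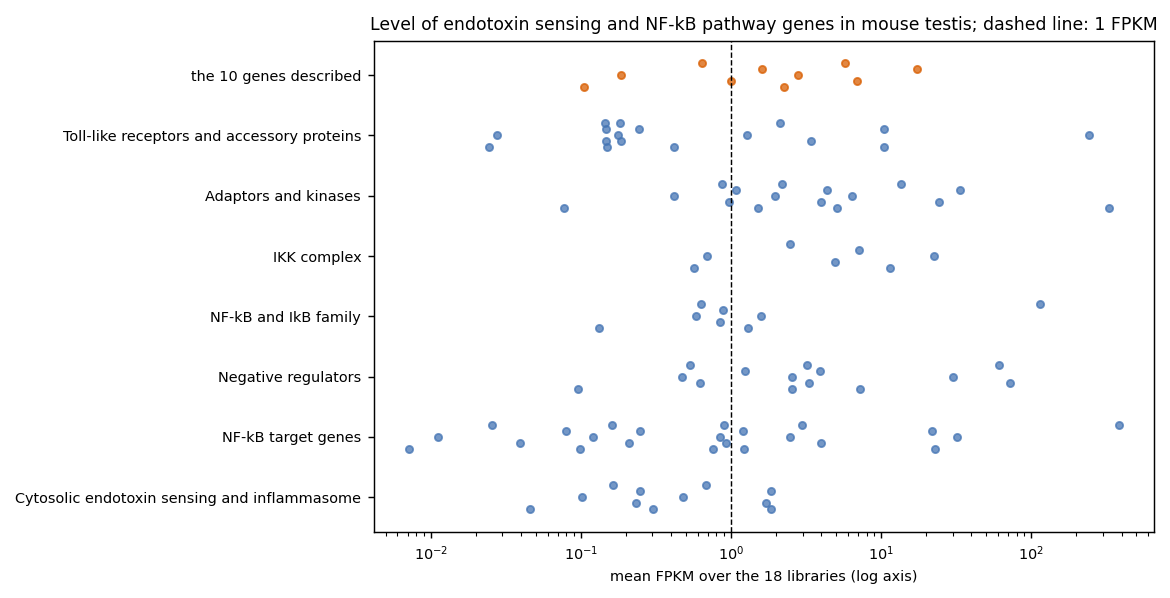
Mean FPKM over the 18 libraries (horizontal axis, log scale) of the genes of each pathway list and of the 10 core genes, one point per gene, without the 2 genes listed at 0. Ube2n at 331.7 FPKM and Lcn2 at 384.2 FPKM mark the upper end, while the Toll-like receptors lie under 1 FPKM.

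By limma 0 of the 48 tested pathway genes were called in any comparison. At an unadjusted p under 0.05, 1 was higher and 2 lower in HFD against control, 6.25% of them, close to the share of all genes. Ecsit, an adaptor that binds TRAF6, averaged 23.6 FPKM in HFD and 27.2 FPKM in control (log2 difference -0.20, limma adjusted p = 0.649). Ube2n averaged 340 against 310 FPKM. Ly86, which encodes MD-1, the partner of the Toll-like protein CD180 and a relative of MD-2, averaged 0.797 against 1.42 FPKM. Summed macrophage markers without Aif1 were also lower without overlap (67.51 to 72.51 FPKM in HFD, 78.52 to 84.62 FPKM in control). With Aif1 the sums overlapped (403.21 to 434.37 against 407.16 to 424.04 FPKM). Of the 14 tested markers 12 were lower and 2 higher, with 0 called. Their part in the values of Ly86 was not tested.

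In AOS against control, 1 pathway gene was higher and 9 lower at an unadjusted p under 0.05, 20.8% of those tested against 15.8% of all genes. All genes leaned lower as well: of those without overlap, 1992 were lower and 1043 higher. The median log2 difference was -0.05 for the pathway genes and -0.03 for all genes. Lcn2 had 431, 476 and 387 FPKM in the control libraries and 227, 305 and 215 FPKM in the AOS libraries, without overlap. Its log2 difference was -0.80 (SE 0.21, limma adjusted p = 0.119). With weights for the libraries it passed the threshold, the only one of these genes to do so under that setting. The summed Leydig cell markers stood at 4057, 3542 and 3870 FPKM in the control and at 2824, 3534 and 2592 FPKM in the AOS libraries, and their part in this result was not tested. Unc93b1, which carries receptors to endosomes, averaged 1.76 against 2.42 FPKM, Tollip 71.2 against 76.4 FPKM and Bcl3, an atypical IkB protein, 1.85 against 1.35 FPKM.

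In HFD-AOS against HFD, 3 pathway genes were higher and 4 lower at an unadjusted p under 0.05, 14.6% of those tested against 12.7% of all genes. Nfkbib averaged 128 against 111 FPKM (log2 difference 0.21, limma adjusted p = 0.263), Hsp90b1 225 against 250 FPKM and Map3k7, the kinase TAK1, 5.93 against 6.67 FPKM. HFD-AOS replicate 1, the library of lowest weight (0.329), held the highest Nfkbib value of the 18 libraries (144.41 FPKM). It also held the lowest of Hsp90b1 (207.11 FPKM) and Map3k7 (5.42 FPKM). The other HFD-AOS values were 118.27 and 122.55 FPKM of Nfkbib, 238.99 and 229.76 of Hsp90b1, and 6.24 and 6.12 of Map3k7. Ly86 averaged 1.51 against 0.797 FPKM. The same HFD libraries, with 0.76, 0.72 and 0.91 FPKM of Ly86, enter this comparison and the one with control. HFD-conFMT averaged 1.52 FPKM of Ly86 and HFD-AOSFMT 0.897 FPKM.

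In HFD-AOSFMT against HFD, Sigirr, an inhibitory receptor of the family, averaged 2.72 against 2.05 FPKM, and was the 1 gene at an unadjusted p under 0.05 (2.08% against 9.82% of all genes). In HFD-conFMT against HFD there were 3, all higher (6.25% against 12.3% of all genes): Ly86, Sigirr at 2.78 against 2.05 FPKM and Vcam1 at 28.2 against 20.4 FPKM. The values of Ly86 did not overlap between the groups, where 20.2% of all genes had no overlap, and those of Sigirr and Vcam1 overlapped. Summed markers of several cell types differed without overlap there, among them adipocyte markers at 43.28 to 49.47 FPKM in HFD-conFMT and 18.16 to 26.82 FPKM in HFD. Leukocyte markers stood at 35.86 to 108.58 against 25.11 to 28.50 FPKM. The highest sum was that of HFD-conFMT replicate 2, a library of high Crisp1, with 81.44 FPKM of Cd52, which is also an epididymal gene. Macrophage markers with Aif1 kept in the sum stood at 437.9 to 475.81 against 403.21 to 434.37 FPKM, and without Aif1 at 81.07 to 95.1 against 67.51 to 72.51 FPKM. Spermatid markers stood at 53643 to 58014 against 39777 to 52683 FPKM and spermatocyte markers at 559 to 577 against 597 to 632 FPKM. Their part in these differences was not tested. In HFD-AOSFMT against HFD-conFMT there was Ly86, lower, as the 1 gene (2.08% against 3.12% of all genes). The Ly86 values overlapped there, with 0.74 to 1.20 FPKM in HFD-AOSFMT and 0.98 to 1.87 FPKM in HFD-conFMT. Adipocyte markers (15.88 to 31.37 FPKM in HFD-AOSFMT), leukocyte markers (24.63 to 25.26 FPKM) and spermatid markers (50447 to 52833 FPKM) lay under all HFD-conFMT values. Their part in the Ly86 difference was not tested. In the difference of the AOS effects there were 2 (4.17% against 6.86% of all genes), Lbp, the serum protein that loads CD14, at 0.57 on the log2 scale (limma adjusted p = 0.679) and Unc93b1 at 0.40.

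**Figure D5:**
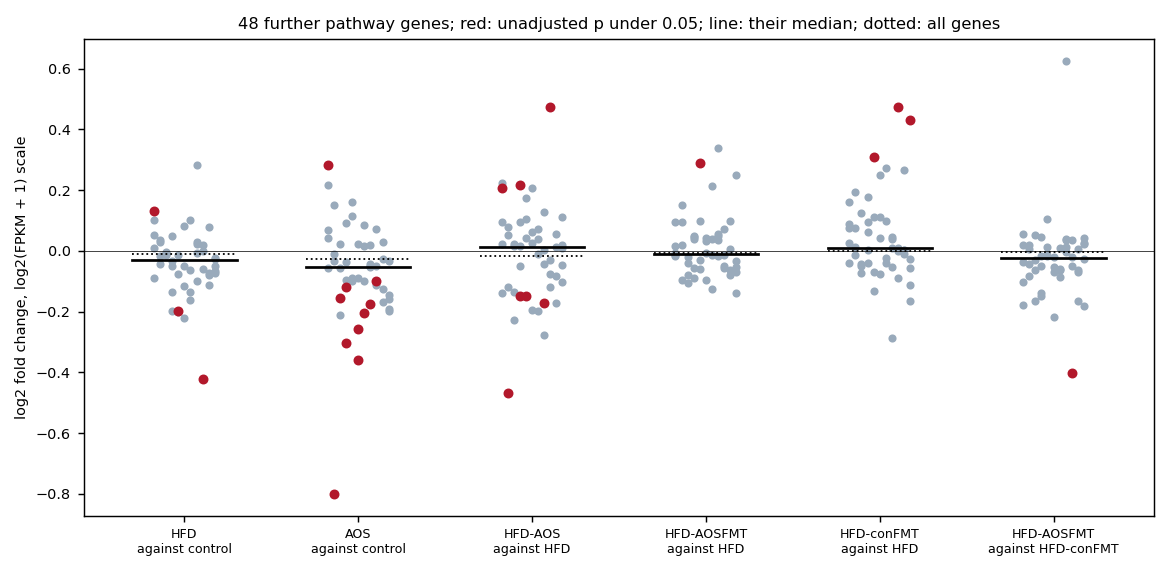
Log2 differences (vertical axis) of the 48 tested pathway genes in the 6 comparisons of groups, one point per gene, with genes of unadjusted p under 0.05 in red, the median as a line and that of all genes dotted. The lowest point is Lcn2 in AOS against control, at -0.80, and the highest Gsdmd in HFD-AOSFMT against HFD-conFMT, at 0.62, neither past an adjusted p of 0.05.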

How the data were processed

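RNA of 18 frozen testis samples, grouped by their treatment labels, was isolated with Trizol and a column and sequenced on Illumina libraries, per the labels' protocols. Reads were mapped with Bowtie 0.12.2 to mm10, per the submitters' processing notes. How reads were counted, on which annotation and with which strand setting, is not stated. Deposited by the authors was a single table with a normalized value per gene and library, taken here as FPKM (reads scaled to transcript length and library total). The header names no unit and no label says how it was made. FPKM was inferred from column sums that differ and low values whose steps follow transcript length. Repeated symbols (6 rows) were dropped, and 403 of the remaining rows were at 0 throughout. Coordinates and exon overlaps came from GENCODE on GRCm38, the assembly of mm10.

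Values were taken as log2(FPKM + 1), and the 13105 genes averaging 1 FPKM or more were tested with limma 3.58.1 in R 4.3.3, as 6 group means with a mean-variance trend and 12 residual degrees of freedom. Tests were two-sided, with Benjamini-Hochberg adjustment over all genes tested and a threshold of 0.05. The code was tested on simulated data. Absolute depth is unknown, so no counting intervals are given. The value of 1 read was estimated from the lowest values of 1362 genes and is rough.

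The members, lists and tests were chosen with earlier results of these data known. All members were named. Of the pathway lists, the rule named the most abundant gene of each, every called gene and, in each comparison, the 4 of smallest unadjusted p under 0.05. Il10, Cxcl2, Tnf, Il6, Il1b, Vcam1, Sod2, Tlr3 and Gsdmd, and the marker genes, were named outside that rule. Likeness took the 3 genes of highest Pearson r per tested member, predicted and clone names left out. Alternatives were a pseudocount of 0.1, no filter, a filter of 5 FPKM, quantile normalization, library weights, a replicate block, leaving out each library and leaving out both libraries of high Crisp1. Python 3.11.15 and matplotlib 3.10.9 drew the figures.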

Additional observations from a re-analysis of the deposited data

How the results depend on the processing

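Of the 10 members, 0 were called in any comparison under any of 25 alternatives: 18 that each left out 1 library and 7 others. Over 1673 recomputed log2 differences the lowest adjusted p was 0.248 and 0 were called, while 99 had the other sign than the reported value. With the replicate block, 0 members were called as well, and the F test called 20 genes instead of 43. No strong pairing by replicate number was seen: correlations of same-numbered deviations ran from -0.243 to 0.167, and 0 of 15 group pairs had every number over 0.1. Weak pairing, or pairing in few genes, could be missed by this check. Without both control 3 and HFD-conFMT 2, an alternative chosen after seeing the data, 0 were called. Of the pathway genes, library weights called 1 in AOS against control (Lcn2) instead of 0. Counts over all genes moved more. In AOS against control 3 genes were called, against 0 to 44 when 1 library was left out and 0 to 240 under the other settings, in HFD-AOSFMT against HFD 3, against 1 to 6 and 1 to 26, and in the F test 43, against 2 to 145 and 1 to 130. In HFD-AOS against HFD 0 were called, against 0 to 4 and 0 to 2, in HFD-conFMT against HFD 0, against 0 to 17 and 0 to 9, and in HFD-AOSFMT against HFD-conFMT 1, against 1 in each case and 1 to 16. With 1 library left out, the highest counts came without HFD-AOS replicate 1 (44, 6 and 17) or HFD-AOS replicate 3 (145 and 4), and the lowest of the F test, 2, without control replicate 1. The cause was not tested. With 3 libraries a group and unknown depth, the levels of Tlr2, Tlr4 and Ly96 rest on few reads, and only differences wider than their intervals could have been seen.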
